A study of Mus musculus with 4 samples.

Results

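The ZFP36 and BTG/TOB proteins shorten the life of messenger RNAs, and 8 genes, those of these proteins and of their partner Cnot7, were followed here in leukemic blasts: Zfp36, Zfp36l1, Zfp36l2, Btg1, Btg2, Tob1, Tob2 and Cnot7. They were chosen by name and are 8 of the 18193 genes that the array annotation names. They are represented by 21 of the 45101 probe sets, each paired with that gene alone. Each gene is given by the brightest of its probe sets, judged by the mean of its log2 values. The blasts came from an M7 (megakaryoblastic) leukemia in mice. It arose after retroviral insertional mutagenesis of fetal progenitors that carried Gata1s, a mutant form of the transcription factor gene Gata1. Blasts marked by the GFP reporter of the retrovirus were sorted without culture or treatment from the spleen and from the peripheral blood of mouse 1 and mouse 2. This gave 2 spleen arrays and 2 blood arrays of Affymetrix type. Both tissues share the mutant Gata1, the virus and 1 leukemia designation, T6(6). Strain, age and sex of the mice are not given in the sources used here, and blasts without the mutation were not analysed here.

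Removal of the poly(A) tail is the first and usually the limiting step in the decay of a messenger RNA, and the CCR4-NOT complex carries out most of it. ZFP36 (also called tristetraprolin) and its relatives ZFP36L1 and ZFP36L2 bind AU-rich elements, short signals found in mRNAs of cytokines, growth factors and early response genes, and bring CCR4-NOT to them. BTG1, BTG2, TOB1 and TOB2 bind the deadenylase subunit CNOT7 through a shared BTG domain and restrain cell division when overproduced. In blood formation, ZFP36L2 is needed for normal stem and progenitor cells in the mouse, and BTG1 is a frequent target of mutations in lymphoid malignancies in humans.

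Zfp36 and Btg2 are also early response genes, transcribed within minutes of a stimulus, and their start regions are shown because their spleen and blood values lay furthest apart among the 8 genes. Those of Zfp36l1 and Btg1, relatives with smaller differences, stand beside them. Each sequence gives the 250 bases before the annotated start, 5′ to 3′ on the strand of the gene, from RefSeq on build GRCm38.p6. Capitals mark matches to the motifs searched.
Zfp36, chr7:28379229-28379478, minus strand: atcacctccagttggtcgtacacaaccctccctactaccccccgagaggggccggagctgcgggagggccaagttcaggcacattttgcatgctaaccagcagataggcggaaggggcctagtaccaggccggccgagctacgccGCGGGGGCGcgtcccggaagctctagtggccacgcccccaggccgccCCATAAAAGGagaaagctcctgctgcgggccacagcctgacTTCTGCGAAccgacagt
Btg2, chr1:134079156-134079405, minus strand: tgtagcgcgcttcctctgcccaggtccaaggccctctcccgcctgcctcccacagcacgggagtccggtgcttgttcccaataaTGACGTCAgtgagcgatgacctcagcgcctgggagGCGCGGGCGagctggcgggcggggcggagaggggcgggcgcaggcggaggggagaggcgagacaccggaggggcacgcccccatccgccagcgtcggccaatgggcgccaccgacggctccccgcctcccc
Zfp36l1, chr12:80113014-80113263, minus strand: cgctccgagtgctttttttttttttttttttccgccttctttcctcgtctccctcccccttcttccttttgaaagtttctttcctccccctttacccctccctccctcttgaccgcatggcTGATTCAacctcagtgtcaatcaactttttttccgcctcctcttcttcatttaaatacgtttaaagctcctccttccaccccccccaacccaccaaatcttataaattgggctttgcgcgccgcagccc
Btg1, chr10:96616751-96617000, plus strand: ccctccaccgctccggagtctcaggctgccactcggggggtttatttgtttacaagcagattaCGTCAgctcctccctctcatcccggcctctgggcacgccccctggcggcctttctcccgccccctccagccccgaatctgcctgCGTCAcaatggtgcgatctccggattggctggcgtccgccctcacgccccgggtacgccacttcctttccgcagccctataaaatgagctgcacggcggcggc

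RefSeq start regions were matched for 6 of the 8 genes. Windows of 300 bases, which add 50 bases after the start, were searched on both strands for 11 motifs of factors that act on early response or blood genes. The set was chosen with the results known. The Zfp36 window held a CArG box, the binding motif of serum response factor, whose first base lay 58 bases before the start, and 1.63% of all 32851 mouse start regions in the table held one. Its AT-rich core resembles that of a TATA box. Zfp36 also held an EGR site (GCGNGGGCG) 105 bases before the start and a STAT site (TTCNNNGAA) 17 bases before it, found in 5.55% and 8.3% of all start regions. Btg2 held a full cAMP response element (TGACGTCA) 166 bases before its start, present in 1.79% of start regions. It also held GCGCGGGCG 131 bases before its start, a match to the loose pattern GCGNGGGCG. With C at N, this match is not called an EGR site. The core of the cAMP response element (TGACG) lies inside the full element of Btg2. It was also found in Btg1, 187 and 103 bases before the start, and in Tob1, in a window not shown here, 96 bases before it. That core occurred in 20.8% of all start regions. Zfp36l1 held TGATTCA 129 bases before its start, a match to the loose AP-1 pattern searched (TGANTCA). That pattern takes any base at N, here T, so the match is not called an AP-1 site. The same loose pattern was matched in 7.81% of all regions, and a stricter one was not searched. The ETS site (CCGGAAGT), the E-box (CACGTG), the GATA site (AGATAA), the kB site and the p53 motif were matched in none of the 6 windows. They occurred in 3.89%, 7.15%, 11.2%, 8.46% and 8.36% of all start regions. A match in letters is a description of the sequence and says nothing of binding in these cells.

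Median intensities of the 4 arrays lay between 103.7 and 110.6. Of 8 matched megakaryocyte markers, 7 passed the brightness filter, a mean at or above the median of all probe sets, which corresponds to an intensity of 106. Itgb3 did not. Their summed intensity was 21754 and 23070 in spleen of mouse 1 and mouse 2, against 18918 and 18735 in blood. All 4 matched B cell markers were below the filter, as were the erythroid genes Hba-a1 and Alas2, while the other 3 of 5 matched erythroid markers, Slc4a1, Klf1 and Epor, passed it. The 9 matched markers of mature granulocytes summed to 4115 and 1136 in spleen of mouse 1 and mouse 2, against 6792 and 17086 in blood. Blood of mouse 2 was thus highest and spleen of mouse 2 lowest for this sum. The same arrays were highest and lowest for the summed markers of macrophages and monocytes and of T and NK cells, given below. Dendritic cell and MHC class II genes summed to 2050 and 1582 in spleen of mouse 1 and mouse 2, against 1376 and 3746 in blood.

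Among the 8 genes, Zfp36 and Btg2 had lower values in spleen blasts than in blood blasts of both mice, by 4.46-fold and 2.06-fold on average, while the other genes lay close between the tissues. Zfp36l2 and Btg1 were bright on every array. Cnot7 was slightly higher in spleen, and Tob1 was dim everywhere. Of the 7 genes bright enough to be tested, 0 had an adjusted p under 0.05 by limma with Benjamini-Hochberg adjustment over the whole table, against 0% of all 11614 tested genes. At an unadjusted p under 0.05, 2 of the 7 passed (12.4% of all tested genes), both of them lower in spleen (4.31% of all) and 0 higher (8.12% of all). The differences described below are those of these 4 arrays from 2 animals. In a bulk sample, fewer cells of a type and less RNA per cell cannot be told apart.

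**Figure D1:**
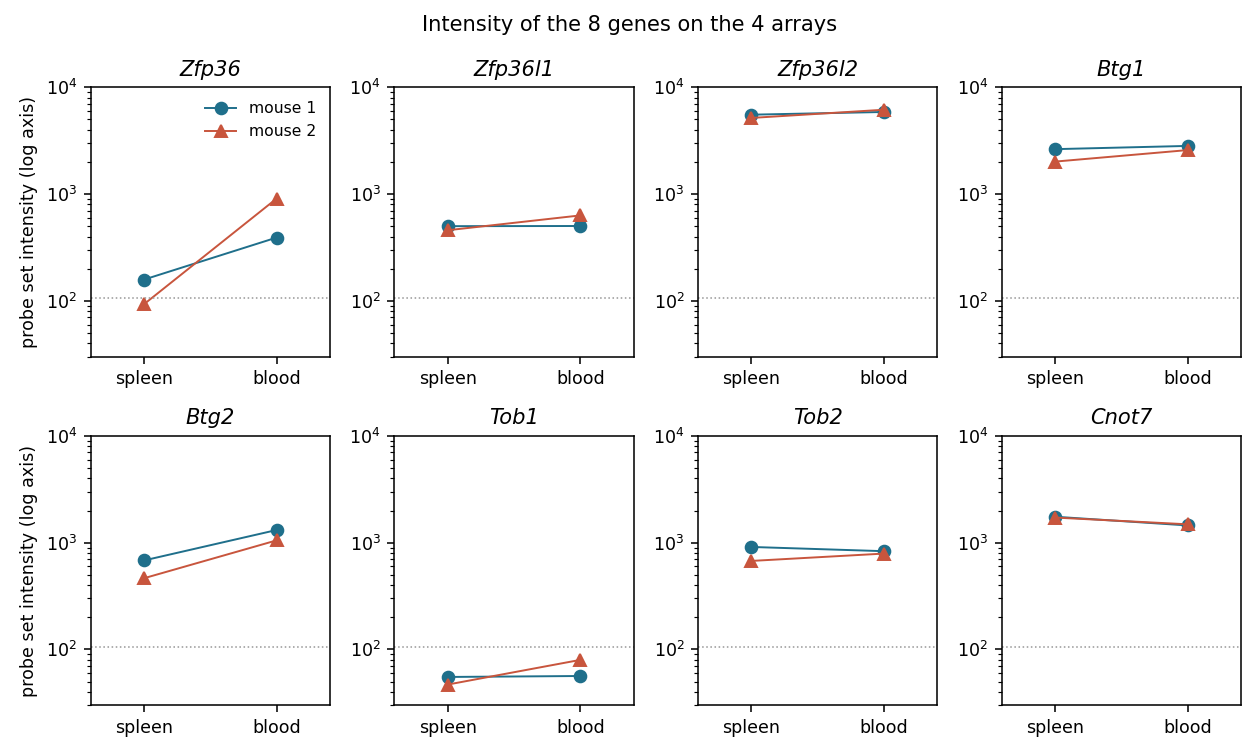
Intensity of the probe set used for each gene (vertical log axis) in spleen and blood, with circles for mouse 1, triangles for mouse 2 and a line for each mouse; each point is 1 array, and the dotted line is the brightness filter of 106. Zfp36, Btg2, Zfp36l1, Zfp36l2 and Tob1 have both spleen points under both blood points, with the widest gaps for Zfp36 and Btg2. Tob1 lies under the filter on all 4 arrays. Probe sets differ in brightness, so heights are not compared between panels.

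Zfp36 had intensities of 158 and 92.7 in spleen of mouse 1 and mouse 2, against 391 and 908 in blood. Both spleen arrays lay under both blood arrays, and the mice stood in opposite order in the tissues: mouse 2 was lower than mouse 1 in spleen and higher in blood. On the log2(intensity + 16) scale, which understates differences of dim genes, spleen minus blood was -1.23 in mouse 1 and -3.09 in mouse 2, with a mean of -2.16 ± 0.41 (SE, 2 arrays per tissue, limma adjusted p = 0.176). Its 95% confidence interval ran from -3.15 to -1.17. Ordered by this difference, Zfp36 ranked 8 from the bottom of the 11614 tested genes. It was the 1 of the 7 tested genes that was at least 2-fold lower in spleen of both mice, as were 0.103% of all tested genes, and 0 of the 7 were at least 2-fold higher in both (0.0603% of all). The size of its difference depended on blood of mouse 2: without that array it was -1.57, and without blood of mouse 1 it was -2.75. A single probe set stands for Zfp36, so no second one was there to set beside it.

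The order of the arrays for Zfp36, with blood of mouse 2 highest, then blood of mouse 1, spleen of mouse 1 and spleen of mouse 2, is also the order of the summed granulocyte markers given above. All 8 tested granulocyte markers were lower in spleen of both mice, as were 25.1% of all tested genes. Of the 9 matched ones, 0 were at or below 0 on every array. Mmp8 lay under the filter of 106 on both spleen arrays and was tested through its blood values. S100a8, a calcium-binding protein abundant in neutrophils, had 1185 and 178 in spleen of mouse 1 and mouse 2, against 2346 and 5601 in blood. Neutrophils make Zfp36 mRNA as well, and the part of such cells in its difference was not tested.

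Btg2 had intensities of 681 and 464 in spleen of mouse 1 and mouse 2, against 1314 and 1051 in blood. The tissues did not overlap, and here mouse 2 was lower than mouse 1 in both. The difference was -0.93 in mouse 1 and -1.15 in mouse 2, with a mean of -1.04 ± 0.21 (SE, 2 arrays per tissue, limma adjusted p = 0.188) and a 95% confidence interval from -1.55 to -0.53. It ranked 52 from the bottom of the tested genes. Mouse 2 minus mouse 1 of this difference was -0.22 for Btg2 and -1.86 for Zfp36. Blood of mouse 1 was the highest array for Btg2, and blood of mouse 2 for the summed granulocyte markers. Those markers were lower in spleen of both mice, as Btg2 was, and their part in its difference was not tested. A second, dimmer Btg2 probe set, 1448272_at, read 385 and 250 in spleen and 438 and 414 in blood, a difference of -0.18 in mouse 1 and -0.69 in mouse 2. It gave the same direction with smaller sizes, and the mean of both probe sets was -0.74. Btg2 is a target of the tumour suppressor p53 as well as an early response gene. Of 13 listed p53 targets other than Btg2, 7 were tested, 5 lay below the filter, Cdkn1a among them, and Bax was not matched. Of the 7, 2 were lower and 4 higher in spleen of both mice, and the median difference was 0.03. Of all tested genes, 25.1% were lower and 38.5% higher in both mice, with a median of 0.03. Pmaip1, a BCL2 family death factor, differed by -0.81 ± 0.18 and Bbc3, another, by -0.23 ± 0.11, while Sesn2, a stress-induced inhibitor of growth signals, differed by 0.19 ± 0.13 (SE, 2 arrays per tissue; adjusted p of 0.21, 0.468 and 0.58).

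The close relatives of Zfp36 lay nearer to level between the tissues. Zfp36l1 had 500 and 458 in spleen of mouse 1 and mouse 2, against 502 and 631 in blood. Spleen and blood of mouse 1 were nearly level, with a difference of -0.0051 on the log2 scale, and the mean difference was -0.23 ± 0.15 (SE, limma adjusted p = 0.567). Its second probe set, 1422528_a_at, gave 0.06 in mouse 1 and -0.29 in mouse 2. Zfp36l2, which was bright on every array, had 5536 and 5162 in spleen, against 5872 and 6161 in blood, and the mean difference was -0.17 ± 0.11 (SE, limma adjusted p = 0.577). For Zfp36l1 and Zfp36l2 too, both spleen arrays lay under both blood arrays of the probe set used. For the probe sets used, the 95% confidence interval ran from -0.45 to 0.11 for Zfp36l2 and from -0.59 to 0.13 for Zfp36l1. Both intervals exclude a 2-fold lower level in spleen and lie above the interval of Zfp36. This holds for the probe sets used only, and the dimmer Zfp36l2 probe sets, given below, did not share its value. The difference between these genes was not tested itself.

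Of the dimmer Zfp36l2 probe sets, 1439054_at read 420 and 208 in spleen of mouse 1 and mouse 2, against 385 and 397 in blood, with spleen of mouse 2 alone low. The dimmest, 1451034_at, went the other way, with 187 and 197 in spleen against 144 and 114 in blood. It was 1 of 3 probe sets among the 19 tested ones of these genes with an unadjusted p under 0.05, beside those used for Zfp36 and Btg2, where 14% of all tested probe sets had one. None of the 19 had an adjusted p under 0.05, nor did any of the 18952 tested probe sets (0%). The 3 probe sets of Zfp36l2 thus gave differences of -0.17, -0.38 and 0.53, and their mean was -0.0082.

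**Figure D2:**
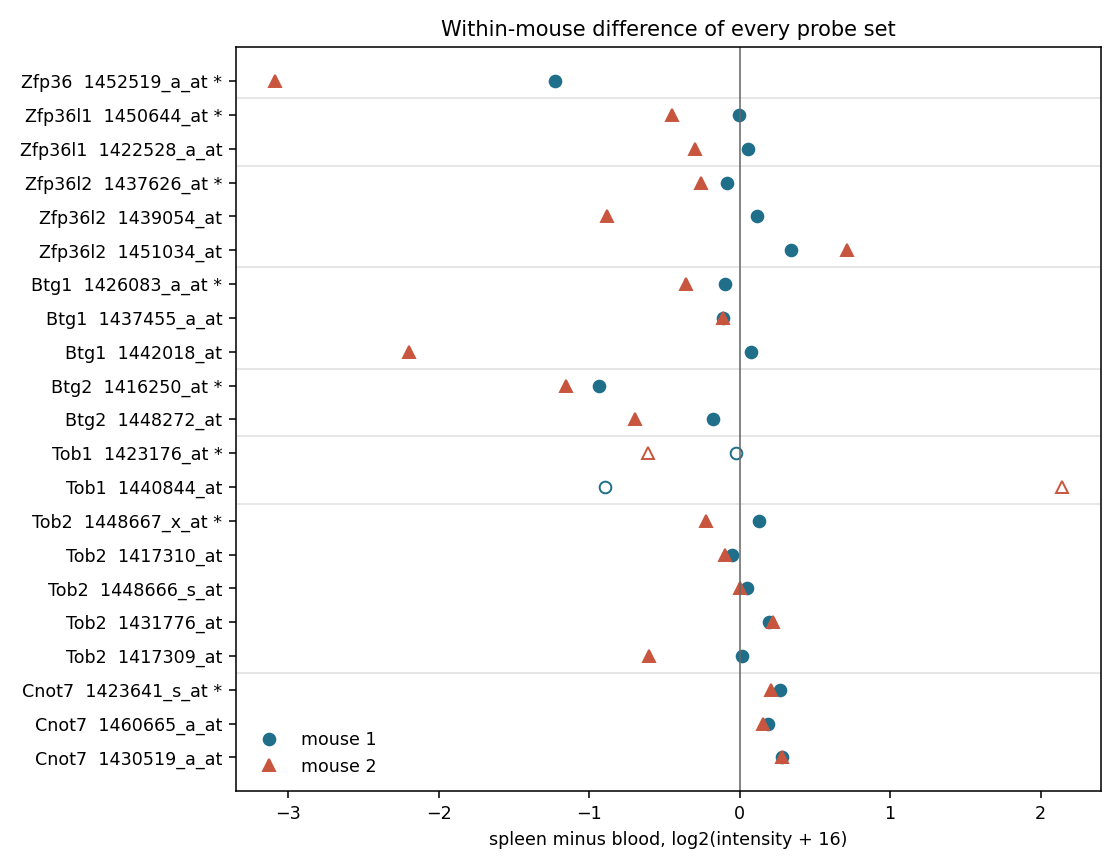
Spleen minus blood on the log2(intensity + 16) scale (horizontal axis) for the 21 probe sets of the 8 genes, with circles for mouse 1 and triangles for mouse 2. An asterisk marks the probe set used for a gene, and open symbols mark those under the brightness filter; Cnot7 lies right of 0 for all 3 probe sets in both mice, and Btg1 1442018_at lies at -2.20 in mouse 2 alone.

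Btg1 had 2633 and 2014 in spleen of mouse 1 and mouse 2, against 2824 and 2583 in blood. Spleen of mouse 1 lay above blood of mouse 2, so the tissues overlapped, although each spleen was lower than its own blood. The mean difference was -0.23 ± 0.16 (SE, limma adjusted p = 0.587), and the probe set 1437455_a_at gave -0.11 in both mice. The dimmest Btg1 probe set, 1442018_at, read 604 and 122 in spleen of mouse 1 and mouse 2, against 571 and 619 in blood. Spleen of mouse 2 was low there and the other arrays lay close together, as for 1439054_at of Zfp36l2. Where these probe sets lie within the transcripts is not given in the files. Lymphocytes carry much Btg1 and Zfp36l2 mRNA. The 9 matched markers of T and NK cells summed to 8848 and 5338 in spleen of mouse 1 and mouse 2, against 7475 and 10644 in blood. Of the 8 tested ones, 3 were lower and 1 higher in spleen of both mice, against 25.1% and 38.5% of all tested genes. The 1 higher was Klrb1b, which was matched through a synonym in place of the listed Klrb1c and is part of the sum. Of the 9, 0 were at or below 0 on every array. The 10 matched markers of macrophages and monocytes summed to 4220 and 2905 in spleen, against 3393 and 6896 in blood, with 1 of 7 tested lower in spleen of both mice (25.1% of all tested genes). The part of these cells in the values of Btg1 and Zfp36l2 was not tested.

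Tob1 and Tob2 showed no shared direction. Tob1 was below the filter and was not tested: its brighter probe set read 55.3 and 46.9 in spleen of mouse 1 and mouse 2, against 56.4 and 79.9 in blood, a difference of -0.02 in mouse 1 and -0.61 in mouse 2. Its other probe set lay between -24.5 and 54.6 over the 4 arrays. Tob2 had 912 and 674 in spleen, against 832 and 790 in blood, which was higher in spleen of mouse 1 by 0.13 and lower in spleen of mouse 2 by -0.22. The mean difference was -0.05 ± 0.16 (SE, limma adjusted p = 0.926), with a 95% confidence interval from -0.45 to 0.36. The probe set used for Tob2, 1448667_x_at, is of a kind that can bind related sequences. Over its 5 probe sets the mean differences ran from -0.29 to 0.21. Probe set 1417310_at, the second brightest, read 622 and 600 in spleen and 646 and 643 in blood, a difference of -0.07.

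Cnot7, the deadenylase subunit that BTG and TOB proteins bind, had 1749 and 1718 in spleen of mouse 1 and mouse 2, against 1449 and 1485 in blood. Both spleen arrays lay above both blood arrays, and mouse 2 minus mouse 1 was -0.03 in spleen and 0.03 in blood. The difference was 0.27 in mouse 1 and 0.21 in mouse 2, with a mean of 0.24 ± 0.11 (SE, limma adjusted p = 0.44) and a 95% confidence interval from -0.03 to 0.51. The other Cnot7 probe sets gave 0.17 and 0.28, so all 3 had the same direction in both mice. The probe set used, 1423641_s_at, is of a kind that can share probes between transcripts of more than 1 gene.

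Counted over the 7 tested genes, 5 were lower in spleen of both mice, 1 (Cnot7) was higher in both and 1 (Tob2) went both ways. Over all tested genes the shares were 25.1%, 38.5% and 36.4%. The count of 5 rests on small differences for Zfp36l1, Zfp36l2 and Btg1, and was 3 of 7 when a gene was given by the average of its probe sets and 4 of 7 with arrays centred on their median. The median difference of the 7 was -0.23, against 0.03 over all tested genes. Both spleen arrays lay under both blood arrays for 4 of the 7 (17.6% of all tested genes) and above them for 1 (27.5% of all). Spleen of mouse 2 was the lowest array for 6 of the 7 and for 28.8% of all tested genes.

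**Figure D3:**
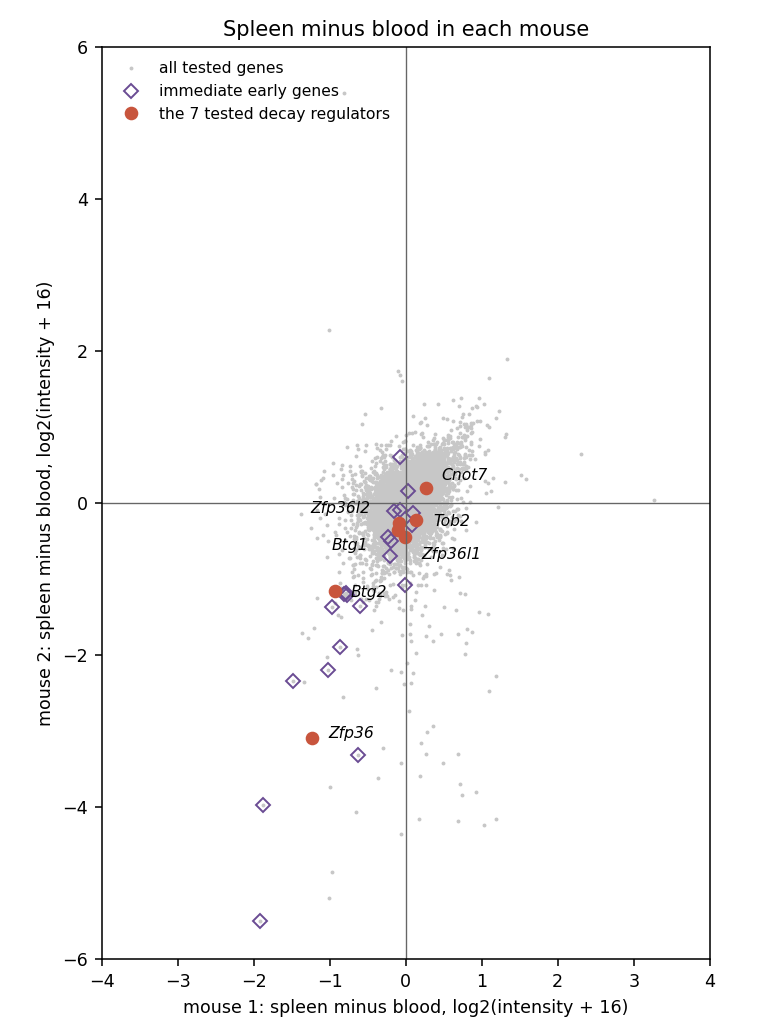
Spleen minus blood in mouse 1 (horizontal axis) and in mouse 2 (vertical axis), both on the log2(intensity + 16) scale, for all 11614 tested genes (grey), 21 immediate early genes (diamonds) and the 7 tested decay regulators (filled circles). Zfp36 and Btg2 lie at the lower left among the immediate early genes, and the other 5 lie near the origin.

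The genes with array profiles most like Zfp36 and Btg2 included early response genes and, for Zfp36, genes of myeloid cells. Likeness was the Euclidean distance between log2 profiles over the 4 arrays, each centred on its own mean, and the 5 nearest of the tested genes were taken for each. For Zfp36 these were Klf2, a Kruppel-like factor (distance 0.47), Retnla, a resistin-like protein of macrophages (0.49), Nfkbiz, an inducible IkB protein (0.51), the activation antigen Cd69 (0.57) and Ngp, a neutrophil granule protein (0.70). The median distance of all other genes from Zfp36 was 2.39. Klf2 had 189 and 89.7 in spleen of mouse 1 and mouse 2, against 301 and 1036 in blood, and Ngp had 644 and 227 against 800 and 2245. For Btg2 the nearest were the early response gene Ier2 (0.15), the nuclear noncoding RNA Neat1 (0.16), Ier5, another early response gene (0.21), Impact, a translational regulator (0.24), and the kinase Map3k8 (0.24), where the median was 1.17. Ier2 had 1075 and 743 in spleen, against 1862 and 1705 in blood. With 4 arrays such closeness describes these profiles only.

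**Figure D4:**
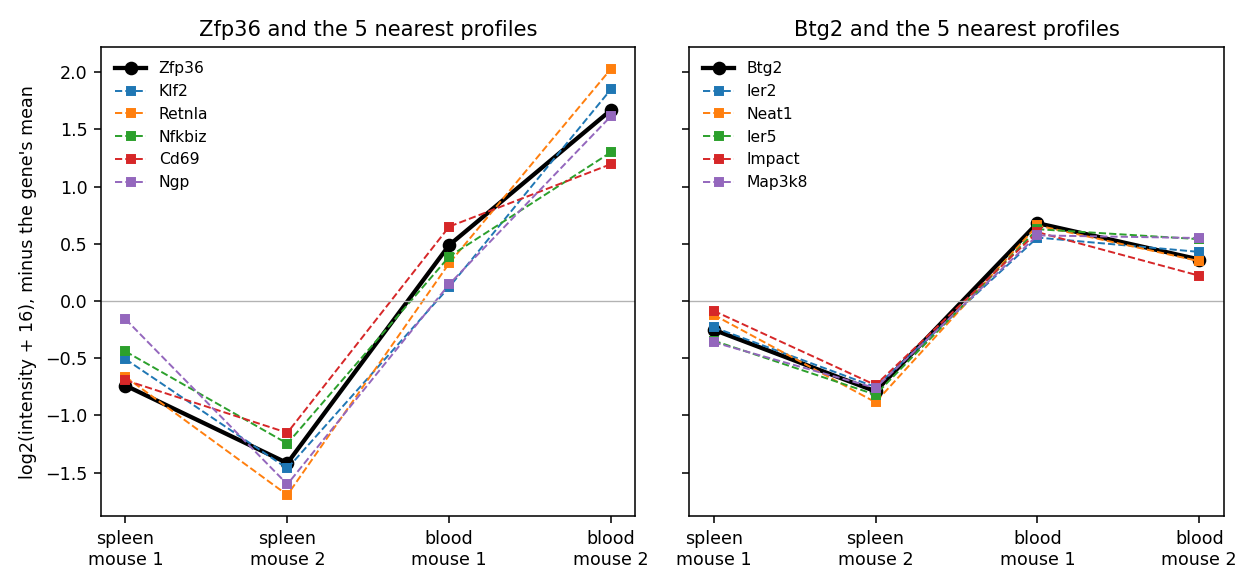
Log2(intensity + 16) minus the gene's own mean (vertical axis) on the 4 arrays for Zfp36 (left) and Btg2 (right) in black and for the 5 genes nearest to each in colour, 1 point per array. The Zfp36 set is highest in blood of mouse 2, and each gene of the Btg2 set has its peak in blood of mouse 1 and its lowest point in spleen of mouse 2.

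Immediate early genes other than these members leaned the same way. Of 30 listed, 21 were tested, 17 of them were lower and 1 higher in spleen of both mice, and the median difference was -0.98. Over all tested genes, 25.1% were lower and 38.5% higher in both mice. An unadjusted p under 0.05 was found for 13, all lower in spleen (4.31% of all tested genes), and 0 passed the adjustment. Fos, a subunit of the AP-1 factor, had 67.7 and 3.26 in spleen of mouse 1 and mouse 2, against 299 and 855 in blood. Fos and Rhob lay under the filter of 106 on both spleen arrays and were tested through their blood values. With no filter, 22 of the 30 listed genes were lower in spleen of both mice. Dusp1, a phosphatase that switches off MAP kinases, had 621 and 164, against 2334 and 2793. The 30 genes summed to 15149 and 11938 in spleen of mouse 1 and mouse 2 and to 23129 and 26252 in blood, the same order of arrays as for the summed granulocyte markers. Those markers had a median difference of -1.88 over the 8 tested, and their part in the early response values was not tested.

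Messenger RNAs reported as targets of the ZFP36 family did not share one direction. Of 27 listed, 15 were tested. In spleen of both mice 7 were lower and 5 higher (25.1% and 38.5% of all tested genes), and the median difference was -0.04. The lower ones included Fos and Dusp1, which stand on the early response list too. Il6, a cytokine, differed by 0.71 ± 0.25 (SE, limma adjusted p = 0.362), with 257 and 179 in spleen of mouse 1 and mouse 2 against 160 and 98.0 in blood. Ccnd1, Pim1, Myc and Tnf were named after their values were seen. Ccnd1, which encodes cyclin D1, had 284 and 243 in spleen against 172 and 165 in blood, a difference of 0.60 ± 0.13 (SE, limma adjusted p = 0.201). The proto-oncogene kinase Pim1 differed by -0.04, and the transcription factor Myc by 0.16 in mouse 1 and -0.05 in mouse 2. The cytokine mRNA Tnf, the best known target, was below the filter.

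Genes of the CCR4-NOT complex and of the poly(A) tail differed little between the tissues. Of the 9 tested CCR4-NOT subunits other than Cnot7, 4 were higher and 1 lower in spleen of both mice, with a median of 0.11, and 1 had an unadjusted p under 0.05. The same shares of all tested genes were 38.5%, 25.1% and 12.4%. The listed subunit Cnot1 was not matched, so it is not among them. Cnot9, a subunit that helps to dock RNA-binding proteins, had 1060 and 1152 in spleen of mouse 1 and mouse 2, against 844 and 848 in blood, a difference of 0.38 ± 0.11 (SE, limma adjusted p = 0.317). Cnot6, the deadenylase that works beside Cnot7, differed by 0.25 and Cnot4, a ubiquitin ligase, by 0.13. Of 8 other deadenylases and poly(A)-binding proteins, 3 were higher and 1 lower in both mice, with a median of 0.04. Pde12 differed by 0.29, Pabpc4 by 0.27 and Parn by 0.14.

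Genes of later steps of decay had differences of similar size. Of 20 tested decapping and 5′ to 3′ decay genes, 11 were higher and 3 lower in spleen of both mice, with a median of 0.11. Lsm4, Lsm2 and Lsm6, subunits of the ring that binds deadenylated mRNA ends, differed by 0.32, 0.32 and 0.31. Of the other ring genes listed and tested, Lsm3 differed by 0.23, Lsm1 by -0.02 and Lsm7 by -0.11, named after their values were seen. Of 16 exosome genes, 9 were higher and 3 lower, with a median of 0.08. The exosome subunit Exosc3 differed by 0.28 and its nuclease Dis3 by 0.30, while Exosc4 differed by -0.30. These shares stand beside the 38.5% higher and 25.1% lower of all tested genes.

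Factors that compete or cooperate with the ZFP36 proteins were also near level. Of 15 tested binding proteins and miRNA effectors, 7 were higher and 1 lower in spleen of both mice, with a median of -0.02. Among all tested genes, 38.5% were higher and 25.1% lower in both mice, with a median of 0.03. Elavl1, which encodes HuR, a protein that binds AU-rich elements and stabilises mRNAs, had 2239 and 2423 in spleen of mouse 1 and mouse 2, against 1701 and 1746 in blood. This was a difference of 0.43 ± 0.11 (SE, limma adjusted p = 0.277), with both spleen arrays above both blood arrays, as for 27.5% of all tested genes. Khsrp, which promotes decay of AU-rich mRNAs, differed by 0.20 and Rc3h1, a stem-loop binding repressor, by 0.14. Of 14 tested kinases, phosphatases and partners that act on these proteins, 8 were higher and 3 lower, with a median of 0.05. Ppp2cb, a catalytic subunit of the phosphatase that acts on ZFP36, differed by 0.31, and the 14-3-3 genes Ywhaq and Ywhae by 0.21 and 0.10.

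**Figure D5:**
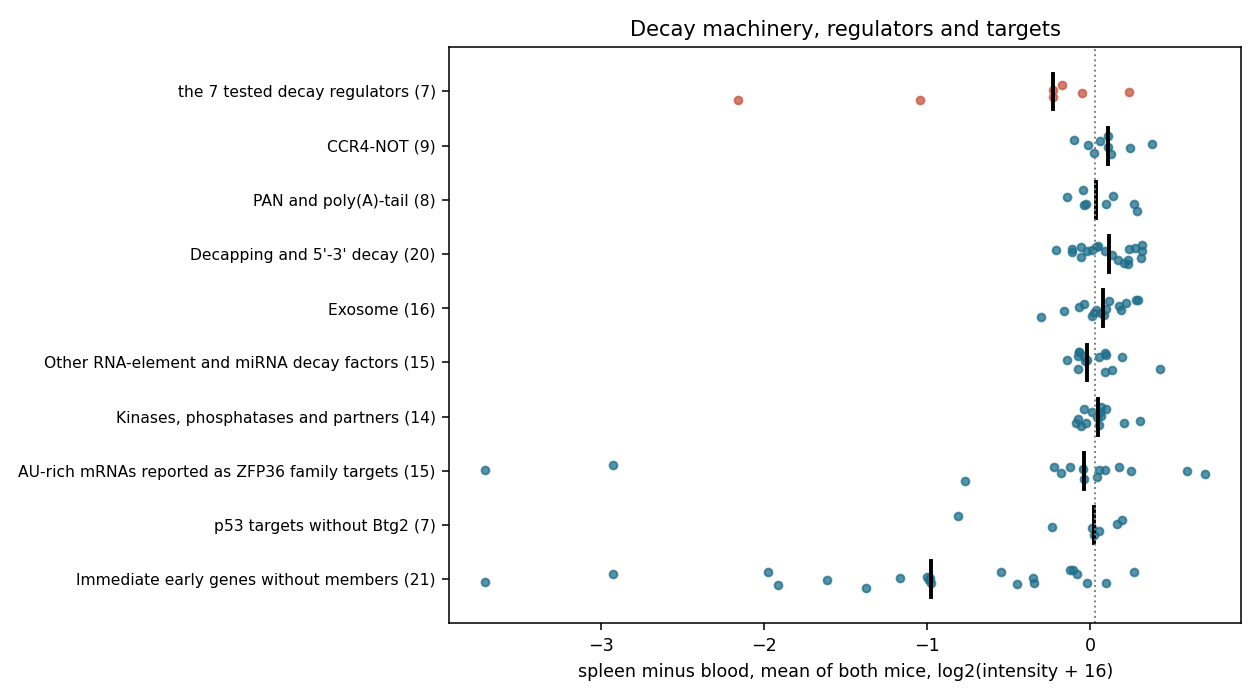
Mean of both mice of spleen minus blood on the log2(intensity + 16) scale (horizontal axis) for each tested gene of the decay regulators and of 9 lists (number tested in brackets), with black bars for medians and a dotted line for the median of all tested genes, 0.03. The immediate early list has a median of -0.98, and the 5 lists of decay machinery and RNA-binding factors have medians between -0.02 and 0.11.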

How the data were processed

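Per the labels' protocols, total RNA was isolated with Trizol, cleaned on columns and turned into biotin-labelled cRNA for Affymetrix arrays. The authors deposited probe set intensity values on a linear scale, 1 column per array, as the values show. How probes were summarised and arrays scaled was not given in the sources used here, and no further scaling was applied. Negative values were raised to 0 before the transformation log2(value + 16). Of 45101 probe sets, 34945 had 1 gene in the platform annotation, and 34741 of these were matched by Entrez identifier to RefSeq symbols. Each of 18193 genes was represented by its brightest probe set, and the 11614 at least as bright as the median probe set were tested with limma 3.58.1 in R 4.3.3 (lmFit and eBayes, two-sided, tissue as the term, Benjamini-Hochberg over all tested genes). The spread is that between 2 animals. The number of arrays limits the precision.

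The members, the gene lists and the tests were chosen with earlier results of these data known. Genes named from a list are its 3 with the largest mean difference of 1 direction in both mice, and exceptions are marked. The tests were checked on simulated data, drawn as independent arrays without pairing by mouse. That check covered direction and false calls and set no bar for the share of changes found. The spleen and blood arrays of a number are paired, since per the labels they come from 1 animal. Over the tested genes, the mouse difference in spleen correlated with that in blood at r = 0.10. Alternatives were mouse as a block, offsets of 4 and 64, quantile and median scaling, other filters, an intensity trend, the mean of all probe sets and leaving out each array. A fit of every probe set separately was added after seeing the data.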

Additional observations from a re-analysis of the deposited data

Results flagged for a closer look

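Of the 21 probe sets, 6 had spleen minus blood differences of opposite direction in the mice, with 1 array per tissue and mouse, so the difference between the mice was not tested. Opposite directions were found for 36.4% of all tested genes, each given by 1 probe set. Mouse 2 minus mouse 1, of spleen minus blood on the log2 scale, was -2.28 for Btg1 1442018_at, -1.0 for Zfp36l2 1439054_at, -0.62 for Tob2 1417309_at, -0.35 for Tob2 1448667_x_at and -0.35 for Zfp36l1 1422528_a_at. It was 3.03 for Tob1 1440844_at, which lay below the filter and below 0 in blood of mouse 2, so its size rests on the offset.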

How the results depend on the processing

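None of the tested members had an adjusted p under 0.05 under any alternative. Zfp36 ranged from -2.26 to -1.83 over scaling, offset, filter, prior and probe set alternatives and from -2.75 to -1.57 with an array left out, with an adjusted p from 0.0757 to 0.693, and it was too dim for the stricter filter. Btg2 ranged from -1.10 to -0.74 and from -1.31 to -0.77, with an adjusted p from 0.0683 to 0.693. With mouse as a replicate block the adjusted p was 0.211 for Zfp36 and 0.173 for Btg2, and the block changed no call. Directions turned for Tob1 and Tob2: Tob1 was 0.15 with the mean of its probe sets, and Tob2 ranged from -0.26 to 0.17 with an array left out, the positive value being that without spleen replicate 2. Over all genes, 40 were called with the stricter filter and 45 with the intensity trend, against 0, and from 0 to 20 with an array left out, 20 being without spleen replicate 1. The count of members lower in both mice was 3 with the mean of probe sets and cannot be had with an array left out. Counts of list genes lower in both mice moved as follows. With quantile normalization they were 2 for CCR4-NOT, 2 for the poly(A) list, 5 for decapping and 5 for other binding factors. With centred arrays they were 0 for the poly(A) list, 0 for kinases and partners and 4 for AU-rich mRNAs. With the mean of probe sets they were 3 for the poly(A) list, 1 for the exosome, 3 for other binding factors and 1 for kinases and partners. With no filter they were 2 for other binding factors and 4 for p53 targets, and with the stricter filter 1 for the exosome and 0 for p53 targets. The cause was not tested, beyond the number of genes that each filter leaves.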
